A study of Bos indicus and Bos indicus x Bos taurus and Bos taurus with 6 samples.

Results

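The nuclear genes for respiratory complexes II, III, IV and V and for cytochrome c were compared in the whole-blood RNA of cows of 3 breeds. Members were taken by gene symbol alone: SDHA to SDHD, every symbol starting with UQCR, CYC1, CYCS, every symbol starting with COX4 to COX8, and every symbol starting with ATP5. This rule found 49 of the 21698 genes in the count table, with 4 in complex II, 9 in complex III, 1 for cytochrome c, 17 in complex IV and 18 in complex V, the inhibitor ATP5IF1 included. Of these, 46 passed the low-count filter and were tested among 13455 genes. The untested members were COX4I2, COX6A2 and COX7B2, which are tissue-restricted forms of complex IV subunits.

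These complexes sit in the inner mitochondrial membrane. Complex II passes electrons from succinate to ubiquinone, complex III passes them on to cytochrome c, complex IV hands them to oxygen, and complex V uses the proton gradient that complexes III and IV help to build to make ATP. Complex II is made only from nuclear genes, whereas complexes III, IV and V also need subunits encoded in mitochondrial DNA. In blood, RNA for these subunits comes from nucleated leukocytes and from platelets, which keep mitochondria, while mature red cells have lost theirs.

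Kedah-Kelantan, a tropical Bos indicus breed, is labelled heat-tolerant, the composite Brangus is placed between, and the Bos taurus Holstein Friesian is labelled heat-vulnerable. All animals were healthy adult cows that were neither pregnant nor lactating, aged 4.5 ± 1.2 years and weighing 450 ± 15 kg on average. All were bled from the jugular vein under heat load on 1 farm, at the same temperature-humidity index of 44.68. All libraries are labelled as under heat stress, so none represents a cow outside it. That state is taken from the labels and was not derived from the index. Each breed had 2 libraries labelled as biological replicates, whereas the design text gives 4 animals per breed, and how the 2 numbers relate is not stated in the sources used here.

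Library totals ranged from 25275377 to 28668857 counts, and 44 members had at least 40 counts in every library (lowest 42). The leukocyte gene PTPRC (CD45) had 42607 to 71267 counts per library, and the erythroid gene HBB had 2831 to 14770, while the erythroid genes HBA1 and CA1 had no count in any library. The 2 Holstein Friesian libraries stood apart from each other in cell type markers. Holstein Friesian 2 had a summed level of 307 CPM (counts scaled to the TMM-adjusted library total) over 11 B and plasma cell markers against 3812 CPM in Holstein Friesian 1, and 7526 CPM over 10 monocyte markers against 579 CPM. With 2 libraries against 2, an exact two-sided permutation test cannot give a p below 0.333, so the tests below come from a model fitted across all genes.

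**Figure D1:**
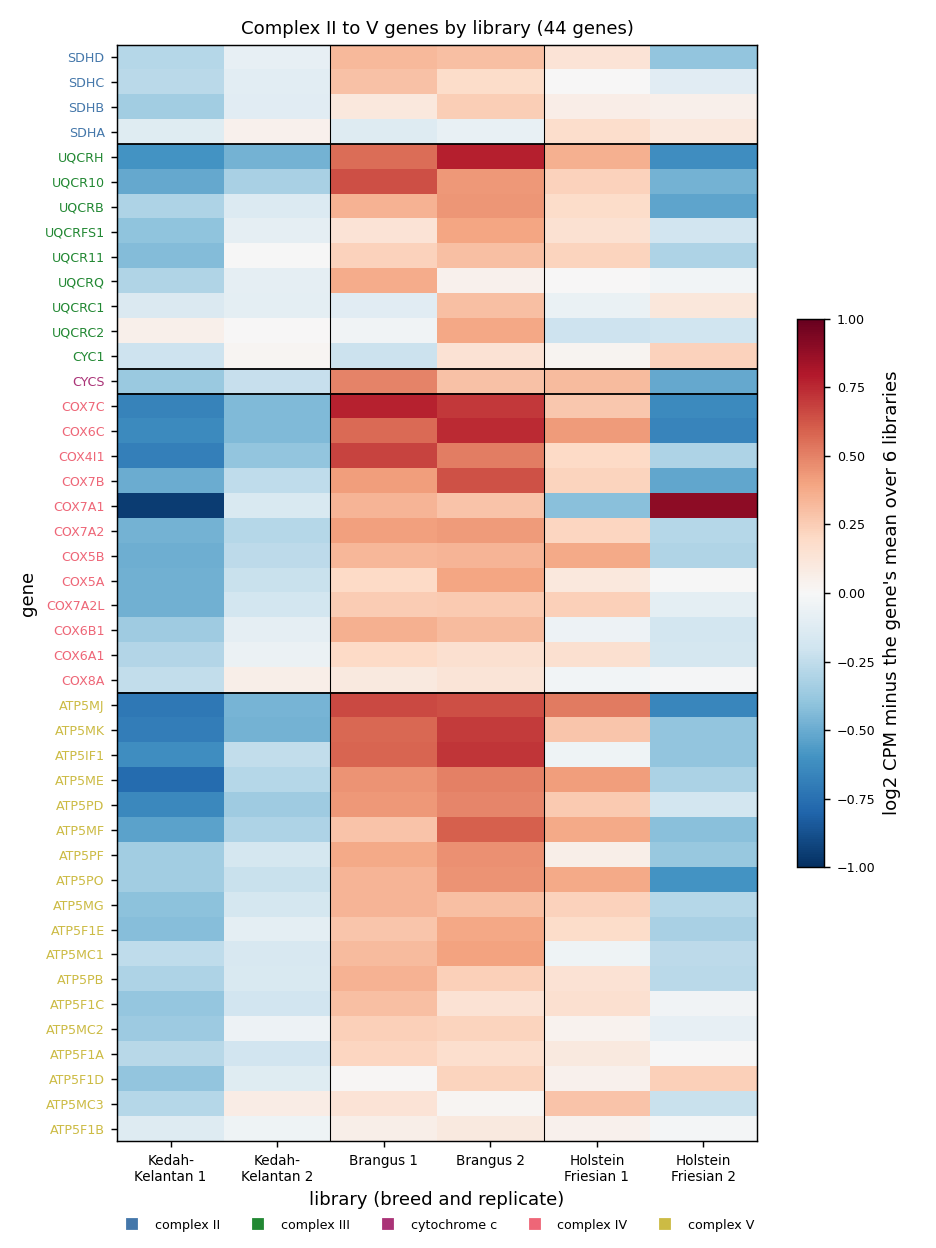
Heat map of the 44 members with at least 40 counts in every library. Rows are genes coloured by complex, columns are the 6 libraries, and colour gives log2 CPM minus the gene's mean over the 6 libraries. Both Brangus columns are mostly red, both Kedah-Kelantan columns are mostly blue, and the 2 Holstein Friesian columns differ, with number 1 mostly red and number 2 mostly blue.

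The heat map of the members showed a common order of the libraries rather than of single genes. The median of the members' centred log2 CPM was -0.39 and -0.16 in the 2 Kedah-Kelantan libraries, 0.32 and 0.33 in the 2 Brangus libraries, and 0.17 and -0.27 in the 2 Holstein Friesian libraries. Brangus was highest in both of its libraries, Kedah-Kelantan was low in both, and Holstein Friesian spanned the gap between them. This order was not particular to the members. Over all 1014 tested genes shorter than 1000 bases, the same medians were -0.31 and -0.12 in Kedah-Kelantan and 0.29 and 0.36 in Brangus. In Holstein Friesian they were 0.11 and -0.25. Summed over all members, the level was 4172 and 4778 CPM in Kedah-Kelantan, 6684 and 6799 CPM in Brangus, and 6033 and 4749 CPM in Holstein Friesian. In bulk blood, fewer cells of a type that is rich in these transcripts and less of the RNA per cell cannot be told apart.

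Single libraries set part of this order. Of the 44 well-counted members, 38 were higher in Holstein Friesian 1 than in Holstein Friesian 2, against 52.2% of all genes with that many counts. Of the 1014 tested genes shorter than 1000 bases, 665 were lower in Holstein Friesian 2 than in Holstein Friesian 1. Holstein Friesian 1 lay nearer the Brangus mean than the Kedah-Kelantan mean in 33 of the 44 members. The share was 59.1% of all tested genes of any length with at least 40 counts in every library. Holstein Friesian 2 lay nearer the Kedah-Kelantan mean in 37 members, against 64.1% of the same genes with at least 40 counts. Among the well-counted members the widest gap between the 2 Holstein Friesian libraries was in the muscle isoform COX7A1, with a log2 difference of 1.304 for number 2 minus number 1 at 127 and 58 counts. The widest gaps in the other direction were in ATP5MJ (-1.17) and COX6C (-1.09). Kedah-Kelantan 2 was above Kedah-Kelantan 1 in 43 of the 44 members, against 54.3% of all such genes, with a median log2 difference of 0.23 over the tested members.

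Between Kedah-Kelantan and Brangus, nearly all members had lower values in Kedah-Kelantan, and the median log2 fold change of the tested members was -0.57, against 0.02 over all genes tested. Of 46 tested members, 44 were lower, where 48.1% of all genes were. Both Kedah-Kelantan libraries lay below both Brangus libraries in 39 members (84.8%), against a background of 30.7% of all genes tested. The exceptions among well-counted members were SDHA, CYC1, UQCRC1, UQCRC2 and ATP5MC3, whose libraries overlapped. No member passed an adjusted p of 0.05 in edgeR's quasi-likelihood test, nor did any other gene (background 0%), and the smallest adjusted p among members was 0.353. At an unadjusted p under 0.05, 24 members (52.2%) were lower and 0 were higher, against 6.09% and 5.54% of all genes. These backgrounds differed with gene length. Among tested genes shorter than 1000 bases, 624 of 1014 were lower without overlap, against 23 of 26 members. At 1000 to under 2000 bases it was 1212 of 2676, against 16 of 19 members. Counts at an unadjusted p under 0.05 in edgeR, in either direction, were 301 and 13 at the shorter length and 330 and 11 at the other.

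Whether members were called between these breeds depended on the test and on which Holstein Friesian libraries were in the fit, which also changed how many genes passed the filter. DESeq2 called 7 members lower in Kedah-Kelantan (background 4.99%), namely ATP5IF1, ATP5MK, ATP5PD, COX4I1, COX5A, COX7C and UQCRH, and limma on log2(FPKM + 0.1) called 0. A fit of the 4 Kedah-Kelantan and Brangus libraries alone called 29 of 45 members lower (background 19.3%). Without Holstein Friesian 1 the count was 28 of 47 members (background 17.4%), and without Holstein Friesian 2 it was 29 of 48 (background 17.5%). Scaling by library totals alone moved the median of all genes to 0.29 and that of the members to -0.31. The members' distance from the median of all genes was -0.60 under both scalings. A change of scaling shifts all genes by nearly the same amount, so this distance could hardly move. With a trend on gene length removed, the distance was -0.077. Under library totals or in limma on FPKM, 7 members had the opposite sign between Kedah-Kelantan and Brangus, namely ATP5F1B, ATP5MC3, COX8A, COX8B, CYC1, UQCRC1 and UQCRC2.

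Brangus against Holstein Friesian, a comparison that shares the Brangus libraries with the one above, gave a median of 0.34 for the members, against -0.03 for all genes. Of the 46 tested members, 40 were higher in Brangus, where 47.3% of all genes were, and the sign of 3 members (ATP5F1B, ATP5MC3 and UQCRC1) was the opposite under library totals or in limma on FPKM. Both Brangus libraries were above both Holstein Friesian libraries in 32 members (69.6%, background 18.4%), and SDHA was the 1 member below them in both (background 15.9%). No member passed in edgeR (background 0.00743%; smallest adjusted p 0.642), and 6 had an unadjusted p under 0.05 and were higher in Brangus (background 3.98%), with 0 lower (background 3.64%). DESeq2 (background 2.33%) and limma called 0 members. Without Holstein Friesian 1 the median became 0.56 and edgeR called 24 of 47 members higher (background 31.3%), whereas without Holstein Friesian 2 it became 0.11 and 0 of 48 were called (background 6.06%).

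Kedah-Kelantan against Holstein Friesian gave the members' median nearest to 0 in the fit of all 6 libraries, at -0.26, with -0.03 for all genes. That rank did not hold without Holstein Friesian 2, where Brangus against Holstein Friesian was nearer to 0 (0.11 against -0.44). It also did not hold with a trend on gene length removed (-0.077 against 0.015 for Brangus against Holstein Friesian). Here 45 of 46 tested members were lower in Kedah-Kelantan (53.5% of all genes), with UQCRC2, whose libraries also did not overlap (background 18.1%), the exception. The libraries did not overlap in 14 of those 45 members (30.4% of the 46 tested, background 12.6%). In edgeR 0 members passed (background 0.00743%; smallest adjusted p 0.995), and 1 member, ATP5PD, was lower at an unadjusted p under 0.05 (background 1.84%) with 0 higher (background 2.2%). DESeq2 (background 0.966%) and limma called 0. Without Holstein Friesian 1 the median was -0.03 and 0 members were called (background 17.5%). Without Holstein Friesian 2 it was -0.44 and edgeR called 17 of 48 members lower (background 11.9%). Under library totals without scaling the median of all genes was 0.12, and 11 members had the opposite sign under that scaling or in limma on FPKM, among them SDHC, SDHD, UQCRB and COX8A. In a test of any difference among the 3 breeds, edgeR called 0 members, and 13 (28.3%) had an unadjusted p under 0.05 (background 8.23%).

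**Figure D2:**
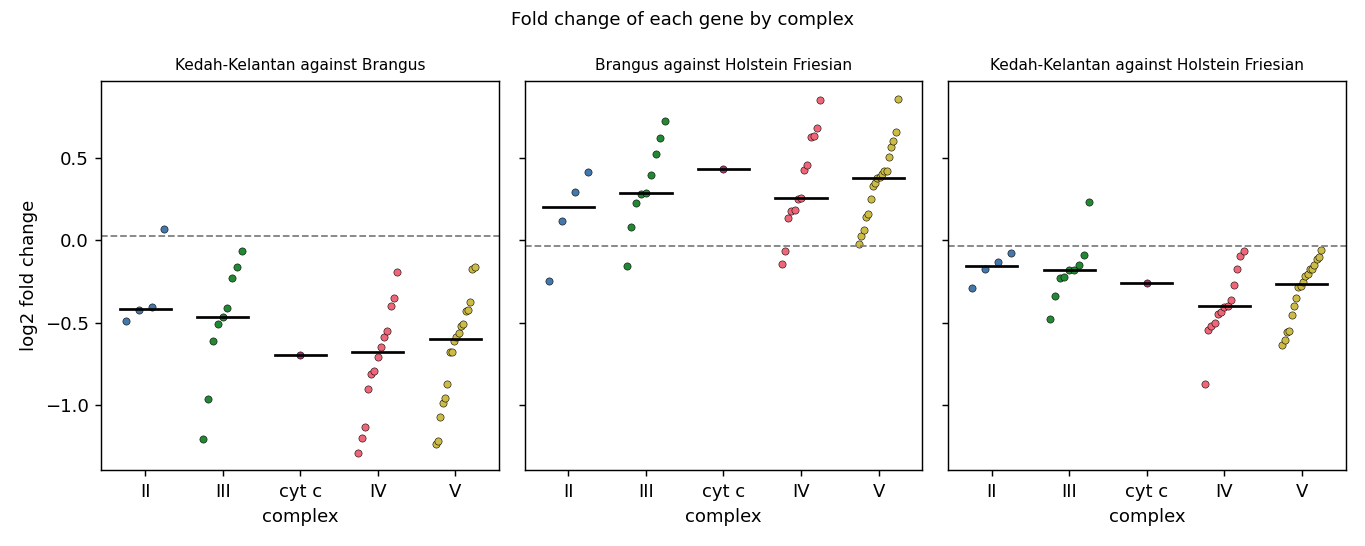
Log2 fold change of each tested member by complex, in 1 panel per comparison. Points are 45 genes (COX6B2, which had no count in Brangus, is left out), black bars are the median of the complex with COX6B2 included and the dashed line is the median of all genes tested. In the panel for Kedah-Kelantan against Brangus only SDHA lies above 0, and the medians of the 4 complexes run from -0.41 in complex II to -0.68 in complex IV.

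Complex II had a median of -0.41 between Kedah-Kelantan and Brangus, the nearest to 0 of the 4 complexes, and its catalytic subunit SDHA had a value above 0. Complex III was nearer to 0 without Kedah-Kelantan 1 (-0.30 against -0.31), and with a trend on gene length removed complex II was the farthest from 0 (-0.11). SDHA, the flavoprotein that oxidises succinate (chromosome 20, 71804565 to 71827899 in the authors' table, whose build, as for the positions that follow, is not certain), stood at 119 and 133 CPM in Kedah-Kelantan, 118 and 122 CPM in Brangus, and 146 and 139 CPM in Holstein Friesian. Kedah-Kelantan and Brangus overlapped, and Holstein Friesian was the highest breed in both libraries. The log2 fold change of SDHA was 0.07 between Kedah-Kelantan and Brangus and -0.25 for Brangus against Holstein Friesian (SE 0.16, edgeR adjusted p 0.675).

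SDHB, the iron-sulfur subunit, stood at 83.1 and 97.9 CPM in Kedah-Kelantan, 114 and 125 CPM in Brangus, and 111 and 110 CPM in Holstein Friesian. Kedah-Kelantan was the lowest breed in both libraries, with a log2 fold change against Brangus of -0.40 (SE 0.17, edgeR adjusted p 0.440). The membrane anchors SDHC and SDHD, which hold the complex in the membrane, were higher in Brangus than in every other library. SDHC was at 67.1 and 75.1 CPM in Kedah-Kelantan, 99.2 and 91.8 CPM in Brangus, and 81.2 and 74.8 CPM in Holstein Friesian. Its log2 fold change between Kedah-Kelantan and Brangus was -0.43 (SE 0.16, edgeR adjusted p 0.420). SDHD was at 131 and 151 CPM in Kedah-Kelantan, 199.8 and 197 CPM in Brangus, and 176 and 122 CPM in Holstein Friesian, so its Holstein Friesian libraries lay on either side of Kedah-Kelantan. The anchors' median was -0.46 for Kedah-Kelantan against Brangus.

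Within complex III the small subunits and the large ones differed in the size of the difference between breeds, with a median of -0.61 for the 5 small subunits and -0.19 for the 2 core proteins between Kedah-Kelantan and Brangus. This split by position in the complex was made after the values were seen and was not tested. With a trend on gene length removed, the 2 medians were -0.16 and -0.065. UQCRH, the hinge protein that helps cytochrome c1 meet cytochrome c (chromosome 3, 99790148 to 99799423), stood at 131 and 144 CPM in Kedah-Kelantan, 294 and 341 CPM in Brangus, and 254 and 129 CPM in Holstein Friesian. It was 2.30-fold lower in Kedah-Kelantan than in Brangus, at -1.20 on the log2 scale (SE 0.34, edgeR adjusted p 0.359). Holstein Friesian 1 was close to Brangus and Holstein Friesian 2 was below both Kedah-Kelantan libraries. UQCR10, another small subunit, was at 29.9 and 34.1 CPM in Kedah-Kelantan, 66.8 and 57.7 CPM in Brangus, and 50.1 and 30.8 CPM in Holstein Friesian, and was 1.95-fold lower in Kedah-Kelantan than in Brangus (edgeR adjusted p 0.364). For both genes the fold change against Holstein Friesian had the opposite sign when Holstein Friesian 1 was left out, going from -0.48 to 0.09 for UQCRH and from -0.34 to 0.06 for UQCR10.

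The electron-carrying subunits of complex III did not share 1 pattern. The Rieske iron-sulfur protein UQCRFS1 stood at 55.6 and 69.1 CPM in Kedah-Kelantan, 80.9 and 96.6 CPM in Brangus, and 81.8 and 64.4 CPM in Holstein Friesian, with Kedah-Kelantan below Brangus in both libraries (log2 fold change -0.51, SE 0.22, edgeR adjusted p 0.449). CYC1, which is cytochrome c1, stood at 45.5 and 53.3 CPM in Kedah-Kelantan, 45.4 and 58.1 CPM in Brangus, and 53.6 and 61.7 CPM in Holstein Friesian. Its Kedah-Kelantan and Brangus libraries overlapped, and its log2 fold change of -0.07 had the opposite sign when library totals were used without scaling. The core protein UQCRC2 was the 1 tested member higher in both Kedah-Kelantan libraries (89.6 and 86.7 CPM) than in both Holstein Friesian libraries (74.8 and 75.2 CPM), at 0.23 on the log2 scale (SE 0.19, edgeR adjusted p 0.995). Cytochrome c itself, CYCS, carries electrons from complex III to complex IV. It was at 33.7 and 37.2 CPM in Kedah-Kelantan, 61.4 and 53.5 CPM in Brangus, and 54.4 and 30.6 CPM in Holstein Friesian, and its log2 fold change between Kedah-Kelantan and Brangus was -0.70 (SE 0.30, edgeR adjusted p 0.455).

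Complex IV had the lowest median of the 4 complexes between Kedah-Kelantan and Brangus, at -0.68. Without Kedah-Kelantan 1 complex V was lower (-0.50 against -0.46), and with a trend on gene length removed complex IV had the highest median (0.013). All 11 members of complex IV other than the tissue-restricted isoforms were lower in both Kedah-Kelantan libraries than in both Brangus libraries (background 30.7%). The background among tested genes shorter than 1000 bases was 624 of 1014. Of these 11 members, 9 had an unadjusted p under 0.05 in edgeR (background 6.09%, and 301 of the 1014 shorter genes in either direction). The 11 and the 9 include COX7A2L, which is a supercomplex factor rather than a constitutive subunit. COX4I1, the largest nuclear subunit and a site where ATP regulates the enzyme (chromosome 18, 11758912 to 11767079), stood at 265 and 324 CPM in Kedah-Kelantan, 683 and 608 CPM in Brangus, and 491 and 345 CPM in Holstein Friesian. The 3 breeds did not overlap. COX4I1 was 2.19-fold lower in Kedah-Kelantan than in Brangus (log2 fold change -1.13, SE 0.24, edgeR adjusted p 0.353) and 1.42-fold lower than in Holstein Friesian (-0.50, SE 0.24, edgeR adjusted p 0.995).

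COX7C, a small subunit of complex IV, had the most negative fold change of the tested members between Kedah-Kelantan and Brangus. It stood at 31.9 and 37.2 CPM in Kedah-Kelantan, 86.3 and 82.5 CPM in Brangus, and 61.0 and 32.5 CPM in Holstein Friesian, a 2.44-fold difference between Kedah-Kelantan and Brangus (log2 fold change -1.29, SE 0.32, edgeR adjusted p 0.353). Holstein Friesian 2 lay inside the Kedah-Kelantan range and Holstein Friesian 1 between the other 2 breeds. COX5A and COX5B, the subunits that face the matrix, showed smaller differences. COX5A was at 67.8 and 81.4 CPM in Kedah-Kelantan, 109 and 125 CPM in Brangus, and 102 and 94.4 CPM in Holstein Friesian. COX5B was at 96.6 and 113 CPM in Kedah-Kelantan, 171 and 172 CPM in Brangus, and 177 and 110 CPM in Holstein Friesian, so Holstein Friesian 1 was its highest library. COX6B1, a subunit on the side of cytochrome c, was at 63.1 and 75.8 CPM in Kedah-Kelantan, 103 and 101 CPM in Brangus, and 77.7 and 71.0 CPM in Holstein Friesian, with a log2 fold change for Brangus against Holstein Friesian of 0.46 (SE 0.17, edgeR adjusted p 0.649).

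Complex V had a median of -0.60 between Kedah-Kelantan and Brangus. In 17 of its 18 members, both Kedah-Kelantan libraries were lower than both Brangus libraries (background 30.7%). By length, the background was 624 of 1014 genes shorter than 1000 bases and 1212 of 2676 genes of 1000 to under 2000 bases. ATP5IF1, which blocks ATP hydrolysis by the enzyme when the proton gradient fails (chromosome 2, 125145440 to 125147684), stood at 54.3 and 70.7 CPM in Kedah-Kelantan, 126 and 137 CPM in Brangus, and 81.2 and 63.8 CPM in Holstein Friesian. Both Brangus libraries were above all others, and Kedah-Kelantan and Holstein Friesian overlapped. ATP5IF1 was 2.10-fold lower in Kedah-Kelantan than in Brangus (log2 fold change -1.07, SE 0.22, edgeR adjusted p 0.353) and 1.81-fold higher in Brangus than in Holstein Friesian (0.86, SE 0.22, edgeR adjusted p 0.642). With a trend on gene length removed, these 2 log2 fold changes were -0.29 and 0.35.

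The parts of complex V were set side by side by their medians, a split made after values were seen and not tested. The 5 small membrane subunits (ATP5ME, ATP5MF, ATP5MG, ATP5MJ and ATP5MK), which hold dimers of the enzyme together or sit beside them, had a median of -0.98 between Kedah-Kelantan and Brangus. The peripheral stalk (ATP5PB, ATP5PD, ATP5PF and ATP5PO) had a median of -0.68, and the F1 head, where ATP is made, had -0.42. With a trend on gene length removed, this order did not hold, and the medians were 0.0090, -0.30 and -0.042. ATP5MK stood at 27.2 and 31.7 CPM in Kedah-Kelantan, 65.5 and 71.5 CPM in Brangus, and 53.2 and 33.5 CPM in Holstein Friesian, with the 3 breeds not overlapping and a log2 fold change between Kedah-Kelantan and Brangus of -1.22 (SE 0.27, edgeR adjusted p 0.353). The stalk subunit ATP5PD was at 81.6 and 99.5 CPM in Kedah-Kelantan, 172 and 179 CPM in Brangus, and 153 and 112 CPM in Holstein Friesian, also without overlap. The stalk subunit ATP5PF was at 49.3 and 55.5 CPM in Kedah-Kelantan, 81.4 and 86.2 CPM in Brangus, and 65.2 and 48.2 CPM in Holstein Friesian.

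Within the F1 head, the smallest difference between Kedah-Kelantan and Brangus was in ATP5F1B. ATP5F1B, the catalytic beta subunit, stood at 455 and 483 CPM in Kedah-Kelantan, 518 and 532 CPM in Brangus, and 514 and 492 CPM in Holstein Friesian. Its log2 fold change between Kedah-Kelantan and Brangus was -0.16 (SE 0.16, edgeR adjusted p 0.725), and its sign was the opposite under library totals without scaling and on the FPKM scale. The alpha subunit ATP5F1A was at 547 and 581 CPM in Kedah-Kelantan, 768 and 743 CPM in Brangus, and 708 and 660 CPM in Holstein Friesian, with no overlap between breeds. The log2 fold change of ATP5F1A between Kedah-Kelantan and Brangus was -0.42 (SE 0.17, edgeR adjusted p 0.427).

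Ratios taken within a library do not depend on how libraries are scaled. In the ratios to complex II given here, Brangus stood apart from the other breeds in both of its libraries. FPKM, the deposited value scaled to gene length and library total, divides each count by gene length and so allows genes to be set side by side. It does not remove a trend of fold change on gene length, and the ratios were not corrected for one. Between Kedah-Kelantan and Brangus, the median log2 fold change was -0.52 over all tested genes under 1000 bases. It was 0.12 over those of 2000 bases and over. The members of complex II are 1112 to 2211 bases long. Summed over members, the FPKM of complex IV was 5.88 ± 0.17 times that of complex II in Kedah-Kelantan, 7.82 ± 0.053 times in Brangus and 6.61 ± 0.85 times in Holstein Friesian (SD, n = 2 each). The ratio of complex V to complex II was 7.78 ± 0.086, 9.14 ± 0.057 and 8.36 ± 0.70, and that of complex III to complex II was 1.84 ± 0.016, 2.34 ± 0.14 and 1.93 ± 0.28 (SD, n = 2 each), in the same order. In each of these ratios both Brangus libraries were above all others, and the 2 Holstein Friesian libraries were far apart, at 7.21 and 6.01 for complex IV over complex II. For complex III over complex II, the Holstein Friesian libraries (2.13 and 1.74) lay on either side of the Kedah-Kelantan libraries (1.85 and 1.83). For complex V over complex II, Holstein Friesian 2 (7.86) was close to Kedah-Kelantan 2 (7.84). A difference between Holstein Friesian and Kedah-Kelantan is therefore not shown.

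Pairs of subunits of 1 complex, chosen after their values were seen and therefore not tested, differed in the same way. The inhibitor ATP5IF1 was at 0.467 and 0.572 times the FPKM of ATP5F1B in Kedah-Kelantan, 0.947 and 1.01 times in Brangus, and 0.618 and 0.507 times in Holstein Friesian. UQCRH was at 2.53 and 2.68 times UQCRC1 in Kedah-Kelantan, 5.53 and 4.83 times in Brangus, and 4.64 and 2.08 times in Holstein Friesian. COX4I1 was at 1.15 and 1.14 times COX8A in Kedah-Kelantan, 2.35 and 2.04 times in Brangus, and 1.84 and 1.28 times in Holstein Friesian. In all 3 pairs Brangus was highest in both libraries. Within complex II, SDHD was at 1.75 and 1.79 times SDHA in Kedah-Kelantan, 2.68 and 2.54 times in Brangus, and 1.90 and 1.383 times in Holstein Friesian. ATP5IF1 (453 bases), UQCRH (1015) and SDHD (1398) are shorter than ATP5F1B (1771), UQCRC1 (1577) and SDHA (2211), over which they were set. COX4I1 (1054 bases) is longer than COX8A (503). What part gene length has in these ratios was not tested.

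**Figure D3:**
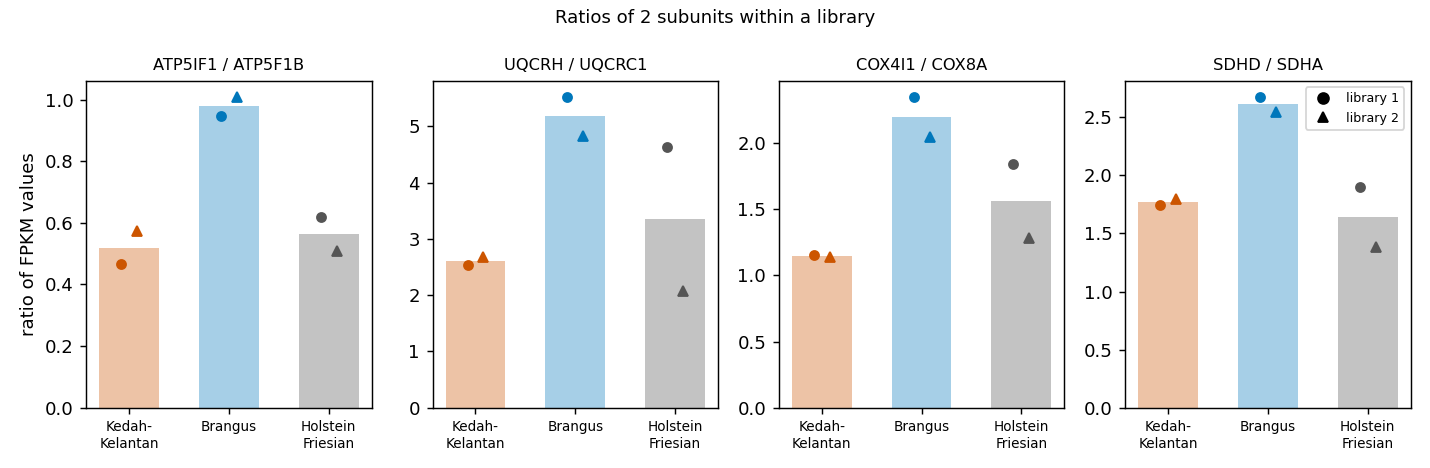
Ratio of the FPKM of 2 subunits within each library, for 4 pairs. Bars are the mean of 2 libraries, circles are library 1 and triangles are library 2. Both Brangus libraries lie above the other 4 in every pair, and the Holstein Friesian libraries are widest apart for UQCRH over UQCRC1 (4.64 and 2.08).

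Per length, complexes IV and V were the most abundant and cytochrome c the least. The median FPKM of the 43 members other than the tissue-restricted isoforms ranged from 87.4 to 145 across libraries, against 5.73 to 7.51 for all genes tested. Complex IV had a median of 138 to 198 FPKM over its 11 members other than tissue-restricted isoforms, and complex V had 100.005 to 193. Complex II had 70.1 to 86.2, complex III 51.2 to 76.2, and CYCS 20.6 to 40.9 FPKM. COX4I1 had the highest mean over the 6 libraries at 422 FPKM, followed by ATP5MG, a small membrane subunit, at 376 FPKM and ATP5F1A at 347 FPKM. COX4I1 was the highest member in 3 of 6 libraries, both of Brangus and Holstein Friesian 1, whereas ATP5F1A was highest in Kedah-Kelantan 1 (318 FPKM) and Holstein Friesian 2 (323 FPKM) and ATP5MG in Kedah-Kelantan 2 (358 FPKM). On this scale, which uses library totals, ATP5F1B was higher in Kedah-Kelantan (286 and 298 FPKM) than in Brangus (270.5 and 275 FPKM).

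**Figure D4:**
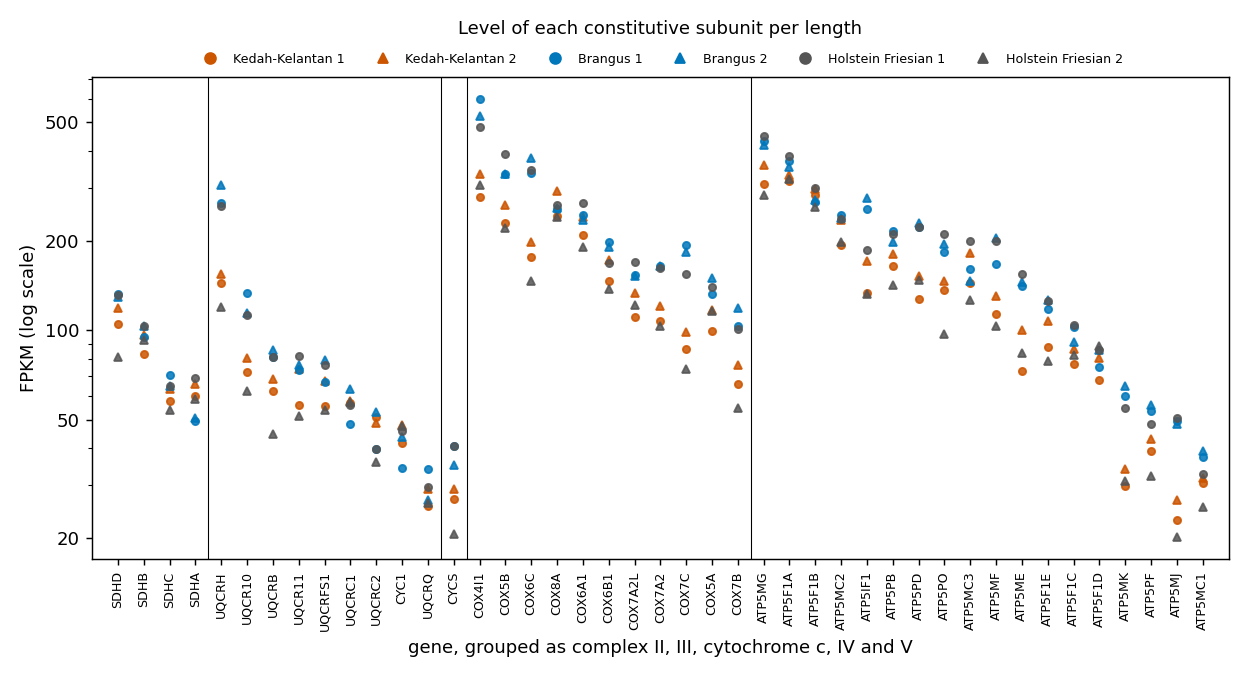
FPKM (log axis) of the 43 members other than tissue-restricted isoforms, ordered by mean within complex II, complex III, cytochrome c, complex IV and complex V. Colour gives the breed and shape the library. COX4I1, at 280 to 599 FPKM, has the highest mean, and UQCRH stands above the rest of complex III in every library.

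Among the paralogs, the ubiquitous isoforms made up nearly all of each family. COX4I1 gave 100% of the COX4I family, since COX4I2, the form found mainly in lung, had no count in any library. COX6A1 gave 98.8 to 100%, COX6B1 99.3 to 100%, COX7B 99.0 to 100% and COX8A 99.1 to 100% of their families' FPKM. The muscle isoform COX7A1 was the most abundant of the tissue-restricted forms, with 42 to 127 counts per library. It held 3.28 to 10.6% of the summed FPKM of COX7A1 and COX7A2, with the highest share in Holstein Friesian 2.

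The testis isoform COX6B2 was read 8 and 13 times in the Kedah-Kelantan libraries, had no count in either Brangus library, and was read 23 and 0 times in Holstein Friesian. Between Kedah-Kelantan and Brangus its log2 fold change was 6.24 (SE 3.19, edgeR adjusted p 0.513). Against a floor of 3 counts per library for a count of 0, its mean in Kedah-Kelantan was 2.64 times that in Brangus. That value leaves out the counting error on the 8 and 13 reads. This floor covers counting error only: of genes with 8 to 15 counts in 1 library of a breed, the share with 0 in its partner was 37.5% for Brangus, 4.26% for Kedah-Kelantan and 21.4% for Holstein Friesian. COX7B2 was read 9 and 12 times in Kedah-Kelantan libraries and 0 times in the other 4, and COX6A2, a muscle form, had 0 to 37. COX8B, another muscle form, had 0 to 17 counts. The 3 genes for the c subunit of complex V, which encode the same mature protein with different import sequences, were compared by their shares of the summed FPKM. ATP5MC2 held 50.5 to 56.5%, ATP5MC3 34.5 to 42.5% and ATP5MC1 7.00 to 9.30%.

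A further 28 rows with LOC symbols have descriptions that name a subunit of these complexes or cytochrome c, some as "-like". Of these, 10 were tested and 10 had no count in any library. They are treated here as possible copies of the named genes, which the descriptions do not state. Reads could be shared between such a copy and its parent gene, so the parent's counts are uncertain by that much. LOC101902937, described as COX7C, was read 521 and 657 times in the Kedah-Kelantan libraries, 156 and 475 times in Brangus, and 300 and 472 times in Holstein Friesian, and its breeds overlapped. COX7C itself had 992 and 1145, 2015 and 1921, and 1818 and 855 counts in the same order. LOC782486, described as a COX6C-like gene, was at 8.14 and 10.1 CPM in Kedah-Kelantan, 13.4 and 20.02 CPM in Brangus, and 18.0 and 8.52 CPM in Holstein Friesian. Its log2 fold change between Kedah-Kelantan and Brangus of -0.87 (SE 0.44, edgeR adjusted p 0.501) had the sign of that of COX6C, which is -1.20. LOC783202 (COX8A) and LOC788745 (an ATP5PB-like gene) were also lower in both Kedah-Kelantan libraries than in Brangus, with log2 fold changes of -0.95 and -0.79. For Brangus against Holstein Friesian, LOC783202 (1.24), LOC132343467 (the epsilon subunit, 0.91) and LOC512953 (alpha-like, 0.23) were higher in both Brangus libraries, and LOC100847700 (cytochrome c, -0.62) was lower. None of these rows passed in edgeR.

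Gene length moved with these differences. Of the 46 tested members, 26 were shorter than 1000 bases and 19 were between 1000 and 2000 bases, and SDHA, the 1 longer member, was the exception noted above. Among all 1014 tested genes shorter than 1000 bases, the median log2 fold change between Kedah-Kelantan and Brangus was -0.52 and 79.2% were lower, against -0.61 and 96.2% for the members of that length. Among all 2676 tested genes of 1000 to 2000 bases the median was -0.20, against -0.51 for the members, and among 9765 longer genes it was 0.12. Short genes also had a median of 0.32 for Brangus against Holstein Friesian, against 0.35 for the short members. For Kedah-Kelantan against Holstein Friesian the 2 medians were -0.23 and -0.27. Brangus lay above Holstein Friesian without overlap in 427 of the 1014 short genes and 18 of the 26 short members. Kedah-Kelantan lay below Holstein Friesian without overlap in 218 of the short genes and 4 of the short members. At 1000 to under 2000 bases, the counts were 698 of 2676 genes against 14 of 19 members, and 450 against 9.

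When a smooth trend of fold change on length was removed, an alternative chosen after seeing the data and not tested, the members' median became -0.07 between Kedah-Kelantan and Brangus, 0.01 between Brangus and Holstein Friesian, and -0.08 between Kedah-Kelantan and Holstein Friesian. Between Kedah-Kelantan and Brangus 28 of 46 members were then below 0. The median of complex IV became 0.01, of complex V -0.09, of complex III -0.08 and of complex II -0.11. Members with the lowest values after this step were ATP5MJ (-1.01), ATP5MK (-0.83), UQCRH (-0.82) and COX4I1 (-0.77), all over 1000 bases long. After it 16 members had the opposite sign, among them COX8A (0.53), UQCR11 (0.44) and ATP5MC3 (0.40). What part length, or a property of the RNA that goes with length, has in the breed differences was not tested.

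**Figure D5:**
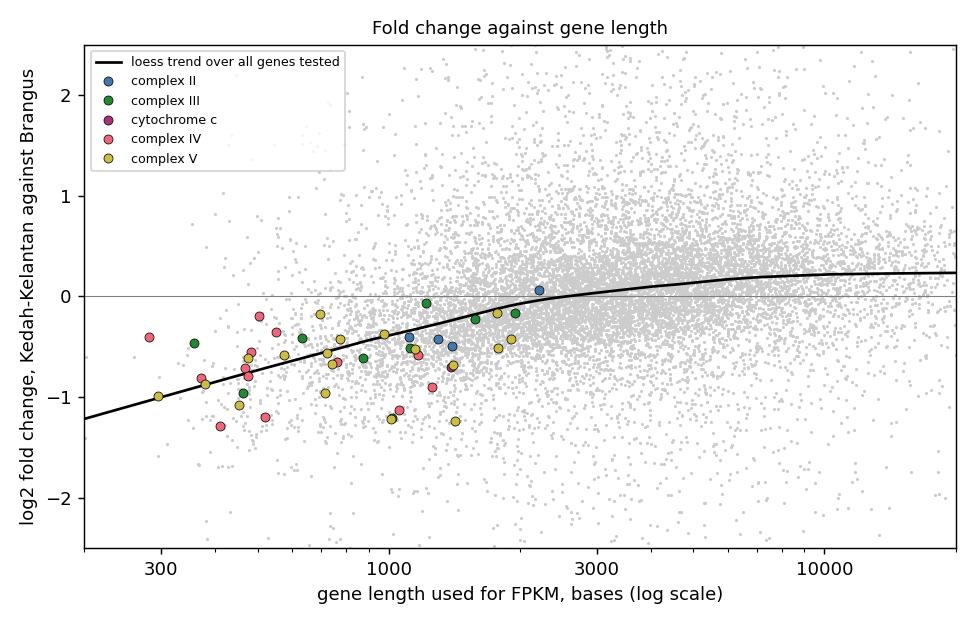
Log2 fold change of Kedah-Kelantan against Brangus by gene length in bases (log axis). Grey points are all genes tested within the axes, coloured points are 45 members (COX6B2 is left out), and the black line is the smooth trend over all genes tested. The trend is below 0 for genes under 1000 bases, where 26 of the tested members lie, and ATP5MJ, ATP5MK, UQCRH and COX4I1 lie well under it.

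Other genes that serve these complexes were counted from lists, and their medians are not corrected for gene length. Of all genes tested, 48.1% were lower in Kedah-Kelantan than in Brangus, with a median of 0.02. Assembly factors of complex II were lower in Kedah-Kelantan than in Brangus in 4 of 4 cases (median -0.49), those of complex III in 8 of 9 (-0.67), those of complex IV in 21 of 27 (-0.49) and those of complex V in 3 of 5 (-0.34). Among them, SDHAF4 had a log2 fold change of -1.18 (edgeR adjusted p 0.405), UQCC2 of -0.76 (0.391), and the complex IV factors SURF1 and COA1 of -0.84 (0.368) and -0.68 (0.356). SURF1 was also higher in Brangus than in Holstein Friesian, at 1.02 (SE 0.26, edgeR adjusted p 0.641). No gene of these lists passed in any comparison.

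Genes for mitochondrial mass, such as import receptors and porins, were lower in Kedah-Kelantan than in Brangus in 16 of 21 cases (median -0.42), where 48.1% of all genes were. Among them were TOMM70 (-0.65, edgeR adjusted p 0.367) and TOMM22 (-0.59, 0.371). Citric acid cycle enzymes were lower in 9 of 13 cases (-0.31). Regulators of mitochondrial biogenesis were split, with 7 higher and 7 lower (median -0.01), and PPARGC1A had no count in any library. All 13 mitochondrially encoded subunits were lower in Kedah-Kelantan than in Brangus (median -0.65). They were also all higher in Brangus than in Holstein Friesian (median 0.70), where 47.3% of all genes were. For Kedah-Kelantan against Holstein Friesian their median was 0.11, where that of the nuclear members was -0.26.

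Markers of blood cell types differed between the breeds as well. Of all 13455 genes tested, 6475 (48.1%) were lower in Kedah-Kelantan than in Brangus and 6979 were higher. Of 8 tested platelet markers, 7 were lower in Kedah-Kelantan than in Brangus. Their summed level was 228 to 266 CPM in Kedah-Kelantan, 1018 to 1065 CPM in Brangus and 342 to 435 CPM in Holstein Friesian. Of 9 tested erythroid markers, 8 were lower, with sums of 213 to 247 CPM, 517 to 752 CPM and 139 to 336 CPM in the same order and with CA1 and HBA1 at 0. Eosinophil, basophil and mast cell markers were higher in Kedah-Kelantan than in Brangus in 6 of 7 cases, with sums of 467 to 482 CPM, 41.9 to 45.5 CPM and 42.0 to 1379 CPM. NK and cytotoxic markers were higher in 12 of 12 cases, with sums of 1067 to 1180 CPM, 609 to 655 CPM and 437 to 1248 CPM. B and plasma cell markers summed to 2412 to 2555 CPM in Kedah-Kelantan, 3186 to 3813 CPM in Brangus and 307 to 3812 CPM in Holstein Friesian. Neutrophil markers were lower in Kedah-Kelantan than in Brangus in 9 of 11 cases, with sums of 2652 to 2850 CPM, 3032 to 4669 CPM and 1006 to 8518 CPM in the order Kedah-Kelantan, Brangus, Holstein Friesian. Monocyte markers were higher in 6 of 10 cases (1560 to 1802 CPM, 1364 to 1370.4 CPM and 579 to 7526 CPM), and of 8 gamma delta T cell markers 7 were lower (97.2 to 97.3 CPM, 131 to 165 CPM and 71.2 to 342 CPM). T cell markers summed to 2645 to 3553 CPM over all libraries. The part of cell makeup in the levels of the respiratory genes was not tested.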

How the data were processed

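Per the submitters' processing notes, the tools were HISAT2 2.2.1, featureCounts 2.0.1, Trimmomatic 0.39, FastQC 0.11.9 and DESeq2 1.38.0, with bovine build ARS-UCD1.2. Their settings and strandedness are not given. The authors deposited whole-number read counts per gene and FPKM values, which are those counts scaled to gene length and library total. Positions are those of the deposited tables, which use some sequence names outside that build, so their build is not certain. edgeR 4.0.16 in R 4.3.3 fitted breed over 6 libraries (TMM, filterByExpr with 3 deiodinase genes kept when counted, robust quasi-likelihood F test, Benjamini-Hochberg over 13455 genes, calls at 0.05). CPM uses TMM-scaled totals. Standard errors (SE) are log2 fold changes over the square root of F. Common dispersion gave a coefficient of variation of 0.431 on 3 residual degrees of freedom. Alternatives were DESeq2 1.42.0, limma 3.58.1, other scalings, filters and sample sets, and a loess length trend (span 0.3). The test was checked on simulated counts. Depending on the breeds compared, it recovered 59 to 68 of 100 genes changed 4-fold and 97 to 100 of 100 changed 16-fold. It also called 3 or 4 unchanged genes. Recovery of smaller differences, such as the 2.44-fold of COX7C between Kedah-Kelantan and Brangus, was not tested. P-values measure the spread between these libraries, which may be technical in part. Floors cover counting error only, because reads lacking molecular identifiers can be copies of 1 molecule. Members and lists were chosen with earlier results of these data known. Named were the 2 members with the smallest p per complex and comparison, the paralog families, 10 set subunits, LOC copies without overlap at a mean of at least 1 CPM, and up to 2 members per pathway list. Other named genes were chosen after their values were seen.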

Additional observations from a re-analysis of the deposited data

How the results depend on the processing

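Counts of calls depended on the test and on the Holstein Friesian libraries. The 3 comparisons are given in the order Kedah-Kelantan against Holstein Friesian, then Brangus against Holstein Friesian, then Kedah-Kelantan against Brangus. For all genes edgeR called 1, 1 and 0 and DESeq2 called 130, 313 and 672. With only the 2 breeds compared the counts were 0, 0 and 2537, with a mean count of at least 50 they were 0, 0 and 0, and DESeq2 size factors in edgeR gave 0 for the second. Leaving out 1 library at a time gave 0 to 2464, 0 to 4395 and 0 to 2458 genes, and 0 to 17, 0 to 24 and 0 to 29 members, and a breed's lone library is then assumed to vary like the others. In the third comparison the 29 and 28 members came without a Holstein Friesian library, and 0 were called without any of the other 4. In the third comparison DESeq2 called 7 members and the fit of only the 2 breeds called 29. The cause was not tested.

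The replicate numbers did not pair the samples (correlations of -0.002, 0.017 and 0.044). The replicate block gave 0, 0 and 0 genes and 0, 0 and 0 members called, with member medians of -0.23, 0.35 and -0.57.

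Leaving out 1 library moved the members' median over -0.44 to -0.030, 0.11 to 0.56 and -0.72 to -0.43. The ranges were -0.29 to -0.074, 0.10 to 0.23 and -0.51 to -0.31 for complex II, -0.43 to 0.058, 0.17 to 0.46 and -0.67 to -0.30 for complex III, -0.62 to -0.067, 0.15 to 0.35 and -0.88 to -0.46 for complex IV, and -0.45 to -0.015, 0.073 to 0.63 and -0.73 to -0.50 for complex V. Without Holstein Friesian 1 the sign was the opposite in the first comparison for complex III (0.058), UQCRH (0.090, range -0.93 to 0.090) and UQCR10 (0.058, range -0.69 to 0.058).

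Library totals and limma on FPKM gave -0.31 and -0.32 for the members in the third comparison, -0.15 and -0.15 for complex II, -0.21 and -0.22 for complex III, -0.42 and -0.42 for complex IV, and -0.34 and -0.34 for complex V. Complex II had 8.0e-05 and 0.0037 in the first comparison, the opposite sign, and 0.099 and 0.10 in the second. With the length trend removed, the first comparison gave -0.062 for complex II, -0.15 for complex IV and -0.032 for complex V. The second gave 0.015 for the members, 0.034 for complex II, 0.087 for complex III, -0.071 for complex IV, 0.071 for complex V and -0.034 for COX6B1. The third gave -0.071 for the members, -0.11 for complex II, -0.079 for complex III, 0.013 for complex IV and -0.090 for complex V. With counts not divided by length, the mean share of COX7A1 went from 5.39 to 4.26%, of ATP5MC1 from 7.91 to 7.74%, of ATP5MC2 from 53.9 to 56.3% and of ATP5MC3 from 38.2 to 35.9%, within the SD pooled over breeds but, for ATP5MC2 and ATP5MC3, beyond that of Kedah-Kelantan or Brangus alone, as for COX7A1 in Brangus.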
